A study of Rattus norvegicus with 7 samples.

Results

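The miR-23/27/24 clusters were read by 5 of the 677 rat miRNAs on the array, namely rno-miR-23a, rno-miR-27a, rno-miR-23b, rno-miR-27b and rno-miR-24, which were taken by their names with the star forms left out. The arrays held RNA of pancreatic islets from male Wistar rats with no treatment named in the labels, 4 of them aged 12 months (replicates 2, 4, 10 and 16) and 3 aged 3 months (replicates 9, 11 and 13). Islets had been obtained by digesting the pancreas with collagenase, and each rat had 1 single-colour Agilent miRNA array. The study asked how the miRNA profile of islets changes with age. Whole islets contain endocrine cells together with vessel, connective tissue and blood cells. Of the endocrine markers, miR-375 and miR-7a were detected on all 7 arrays with signals of 8325 units or more, whereas miR-184, another miRNA of islet endocrine cells, was not detected on any array.

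A miRNA finds its target mRNAs mainly through its seed, bases 2 to 8 from the 5′ end, and lowers the translation or stability of those mRNAs. miR-23, miR-27 and miR-24 are cut from a shared precursor transcript, and mammals carry a copy of the cluster with the a forms and a copy with the b forms. The clusters are well known from endothelial cells, in which they take part in vessel growth, and from fat and muscle differentiation. miR-23 is known as a repressor of glutaminase and miR-27 as a repressor of the adipocyte factor PPARγ.

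The mature sequences are shown because the a and b forms are told apart on the array by a single base. All 5 miRNAs matched a RefSeq entry of the GRCr8 build, each as the -3p arm, and the seed is in capitals.
miR-23a: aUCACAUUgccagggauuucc
miR-23b: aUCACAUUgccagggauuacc
miR-27a: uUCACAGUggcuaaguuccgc
miR-27b: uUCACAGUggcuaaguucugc
miR-24: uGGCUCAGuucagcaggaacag

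Counted from 1 at the 5′ end, miR-23b differed from miR-23a by U19A, and miR-27b differed from miR-27a by C19U. Both changes lie outside the seed. The seeds of miR-23a and miR-27a differed from each other at 1 base, U7G, whereas the seed of miR-24 is unlike both. Among 693 mature rat miRNAs in the RefSeq table, no other miRNA carried any of these 3 seeds. In GRCr8 the a cluster (Mir23a, Mir27a and Mir24-2) lies on the minus strand at chr19:40859455-40859843, a span of 389 bases that overlaps no other annotated gene. The b cluster (Mir23b, Mir27b and Mir24-1) lies on the minus strand at chr17:1818669-1819482, a span of 814 bases inside the aminopeptidase gene Aopep, and it also overlaps Fancc and, on the opposite strand, Mir3074. Mature miR-24 is identical from both clusters, so that its signal is the sum of both. The level of one miRNA was not set against that of another, because each probe binds with its own strength. Changes between arrays were compared instead.

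None of the 5 miRNAs differed between the ages after normalization (limma, Benjamini-Hochberg adjusted p between 0.396 and 0.953). The a forms lay slightly higher at 12 months, by 0.24 for miR-23a and 0.18 for miR-27a on the log2 scale, while the b forms and miR-24 lay between -0.06 and -0.02. Of the 272 miRNAs tested, 4 (1.47%) had an adjusted p below 0.05 and 59 (21.7%) an unadjusted one, of which 25 were higher at 12 months (9.19%), against 0 of the 5 for both thresholds. The ages did not overlap for 47 of the tested miRNAs (17.3%; 7.72% higher at 12 months) and for 0 of the 5. The median log2 fold change was -0.02 over the 5 miRNAs and 0.06 over all those tested, and 128 of the 272 had a larger absolute log2 fold change than miR-23a. In whole islets, fewer cells of a type and less RNA per cell cannot be told apart.

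miR-23a, whose hairpin comes first in the a cluster, had normalised log2 signals of 11.06, 11.27, 11.35 and 11.27 in the 12-month-old replicates 2, 4, 10 and 16, and of 10.97, 11.06 and 10.97 in the 3-month-old replicates 9, 11 and 13. Only the older replicate 2 reached down to the level of the younger rats, where it shared its value with replicate 11. The means were 11.24 ± 0.13 (SD, n = 4) and 11.001 ± 0.05 (SD, n = 3), a log2 fold change of 0.24 (SE 0.14, 95% interval -0.08 to 0.55; limma adjusted p = 0.396; two-sided exact permutation p = 0.0857). miR-27a had values of 10.08, 10.42, 10.55 and 10.15 at 12 months and 9.998, 10.22 and 10.15 at 3 months. Its older replicates 4 and 10 lay above the younger rats and the other two lay among them. Its log2 fold change was 0.18 (SE 0.17, 95% interval -0.21 to 0.56; limma adjusted p = 0.622; exact permutation p = 0.286).

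In the b cluster, miR-23b had normalised log2 signals of 13.69, 13.38, 13.05 and 13.46 at 12 months and 13.55, 13.38 and 13.32 at 3 months. The older rats held both the highest value, in replicate 2, and the lowest, in replicate 10. The log2 fold change of miR-23b was -0.02 (SE 0.18, 95% interval -0.43 to 0.39; limma adjusted p = 0.953; exact permutation p = 0.943). miR-27b had values of 12.57, 12.52, 11.96 and 12.57 in the older rats and 12.21, 12.52 and 12.57 in the younger ones. Replicate 10 again had the lowest value of all 7 rats, and the other older rats lay at the upper end of the younger range. The log2 fold change of miR-27b was -0.03 (SE 0.20, 95% interval -0.49 to 0.43; limma adjusted p = 0.953; exact permutation p = 0.971).

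miR-24, which both clusters encode, had values of 12.52, 12.21, 11.85 and 12.38 at 12 months and 12.13, 12.38 and 12.38 at 3 months. The order of the older rats was that of miR-23b, with replicate 2 highest and replicate 10 lowest. The log2 fold change of miR-24 was -0.06 (SE 0.19, 95% interval -0.50 to 0.38; limma adjusted p = 0.943; exact permutation p = 0.8). The intervals of the 5 miRNAs run from a 0.709-fold to a 1.47-fold level at 12 months relative to 3 months. This range holds for the quantile-normalised scale only. Within the slide rows, each of which held both ages, the log2 fold changes in row 1 (older replicates 2 and 4 against younger replicate 9) were 0.19 for miR-23a, 0.25 for miR-27a, -0.01 for miR-23b, 0.33 for miR-27b and 0.23 for miR-24. In row 2 (older replicates 10 and 16 against younger replicates 11 and 13) they were 0.30, 0.17, -0.10, -0.28 and -0.27 in the same order. The sign thus held in both rows for miR-23a, miR-27a and miR-23b and differed between the rows for miR-27b and miR-24.

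**Figure D1:**
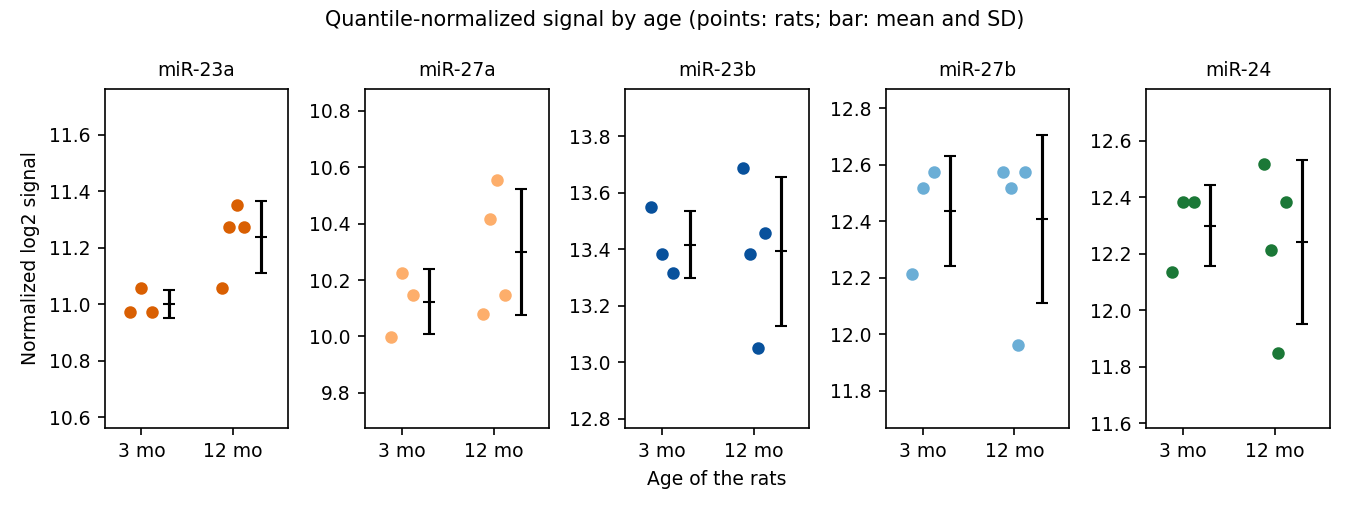
Quantile-normalised log2 signal (y axis, each panel spanning the same range around its own centre) of the 5 miRNAs at 3 and at 12 months of age. Points are rats, and bars give the mean and SD (n = 3 and 4). The ages overlap in every panel, and the lowest point at 12 months for miR-23b, miR-27b and miR-24 is replicate 10.

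The arrays of the older rats were brighter before normalization, and the median log2 difference of the tested miRNAs was 0.79. Their 75th percentile of total gene signal was 70.5 ± 2.79 units (SD, n = 4) against 46.0 ± 8.999 units (SD, n = 3), and 131 of the 272 miRNAs (48.2%) were higher at 12 months with no overlap. The total gene signal of miR-23a was 3132, 3047, 2891 and 3205 units in the older replicates 2, 4, 10 and 16 and 1398, 2068 and 1093 units in the younger replicates 9, 11 and 13. That of miR-27a was 1544, 1614, 1572 and 1599 units in the older rats and 777, 1049 and 652 units in the younger ones. For both a forms every older rat lay above every younger rat (two-sided exact permutation p = 0.0286, the smallest that 4 against 3 rats allow), with log2 differences of 1.06 and 0.97 that include the brightness of the arrays.

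Before normalization, the signals of the a forms lay evenly among the older rats. These unnormalised signals include the brightness of the arrays. The 75th percentile of the arrays also varied less at 12 months (SD 2.79 units) than at 3 months (SD 8.999 units). After normalization the a forms varied more at 12 months than at 3 months. The SD on the log2 scale was then 0.126 against 0.049 for miR-23a and 0.224 against 0.115 for miR-27a. The coefficient of variation was not taken over all miRNAs. At 12 months it was 4.40% for miR-23a and 1.94% for miR-27a, and at 3 months it was 32.8% and 24.6%. miR-23b, in contrast, had signals of 19218, 13145, 7930 and 16539 units in the older replicates 2, 4, 10 and 16, a coefficient of variation of 34.3%. miR-27b had 9686, 6741, 4124 and 8232 units (33.0%), and miR-24 had 8931, 6334, 4012 and 7323 units (31.0%). These miRNAs thus fell in the same order, with replicate 2 highest and replicate 10 lowest. Without replicate 10 the coefficients of variation at 12 months were 18.7% for miR-23b, 17.9% for miR-27b and 17.4% for miR-24, against 2.53% for miR-23a and 2.31% for miR-27a. In the younger replicates 9, 11 and 13, miR-23b had 7692, 9673 and 7428 units, miR-27b had 4170, 4939 and 3906 units and miR-24 had 3954, 4250 and 2914 units, with coefficients of variation of 14.8%, 12.4% and 18.9%. For all 3 miRNAs, replicate 10 lay within the range of the younger rats and the other older rats lay above it. The log2 differences between the ages were 0.72 for miR-23b, 0.67 for miR-27b and 0.80 for miR-24 (exact permutation p = 0.114, 0.114 and 0.0857). The 5 miRNAs together took 9.17% ± 1.30 (SD, n = 4) of the total signal of all rat miRNAs at 12 months and 9.35% ± 0.232 (SD, n = 3) at 3 months (exact permutation p = 0.8).

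**Figure D2:**
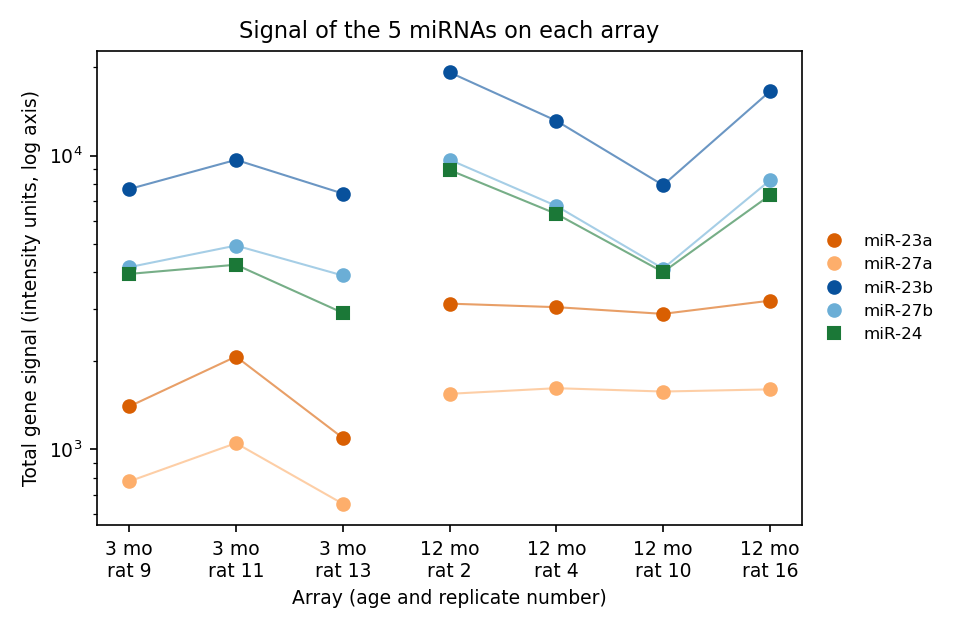
Total gene signal before normalization (y axis, intensity units on a log axis) on each of the 7 arrays (x axis, by age and replicate number). Lines join the values of 1 miRNA within an age and stand for no order among the rats. In the 12-month-old rats miR-23a and miR-27a keep nearly the same signal, while miR-23b, miR-27b and miR-24 rise and fall together and are lowest in replicate 10.

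To compare the clusters at both ages, the log2 signal of a b form was subtracted from that of its a form on the same array. A factor common to a whole array drops out of this difference. The size of the difference also depends on how well each probe binds, so that only its variation between rats was read. For miR-23a minus miR-23b the normalised difference was -2.63, -2.11, -1.70 and -2.18 in the older replicates 2, 4, 10 and 16 and -2.58, -2.33 and -2.35 in the younger replicates 9, 11 and 13. Replicate 10 had the highest value and replicate 2 the lowest, so the older rats enclosed the younger ones. The means of -2.16 ± 0.38 (SD, n = 4) and -2.42 ± 0.14 (SD, n = 3) differed by 0.26, less than the SD at 12 months. The two-sided exact permutation test of this difference gave p = 0.314. For miR-27a minus miR-27b the values were -2.49, -2.10, -1.41 and -2.43 at 12 months and -2.22, -2.29 and -2.43 at 3 months. The picture was that of the miR-23 pair, and the difference of 0.20 between the ages was again less than the SD at 12 months (0.50). Its exact permutation test gave p = 0.714. The p values of the 4 differences compared here were not adjusted, as none lay below 0.05.

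Averaged over both pairs, the a cluster relative to the b cluster lay at -2.13 ± 0.43 at 12 months (SD, n = 4) and at -2.36 ± 0.05 at 3 months (SD, n = 3), a difference of 0.23. Without normalization, the same average was -2.63, -2.09, -1.42 and -2.37 in the older replicates 2, 4, 10 and 16 and -2.44, -2.23 and -2.67 in the younger replicates 9, 11 and 13. The older rats spanned 1.21 and the younger rats 0.44. Replicate 10 set much of that span, which was 0.55 without it. On the same unnormalised scale, in settings chosen after the data had been seen, leaving out replicate 10 lowered the age difference from 0.35 to 0.12 for miR-23a minus miR-23b and from 0.30 to 0.06 for miR-27a minus miR-27b. Within slide row 1 the unnormalised age differences were 0.10 and 0.07, and within row 2, which held replicate 10, they were 0.58 and 0.53. After quantile normalization, leaving out replicate 10 gave 0.11 for the miR-23 pair and -0.03 for the miR-27 pair. The normalised values within row 1 were 0.20 and -0.08, and within row 2 they were 0.40 and 0.44, so that the sign of the miR-27 pair turned only on the normalised scale.

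Without normalization, miR-23 and miR-27 of a cluster kept a nearly fixed difference from rat to rat. miR-27b minus miR-23b ranged only from -1.01 to -0.94 in the older rats and from -0.97 to -0.88 in the younger ones. miR-27a minus miR-23a ranged from -1.02 to -0.88 at 12 months and from -0.98 to -0.75 at 3 months. The ages differed by -0.05 for the b cluster (exact permutation p = 0.143) and by -0.10 for the a cluster (exact permutation p = 0.2). After quantile normalization the age differences were -0.01 for the b cluster (exact permutation p = 0.971) and -0.06 for the a cluster (exact permutation p = 0.571). The values of miR-27b minus miR-23b then spread more widely, from -1.34 to -0.74 over all 7 rats.

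**Figure D3:**
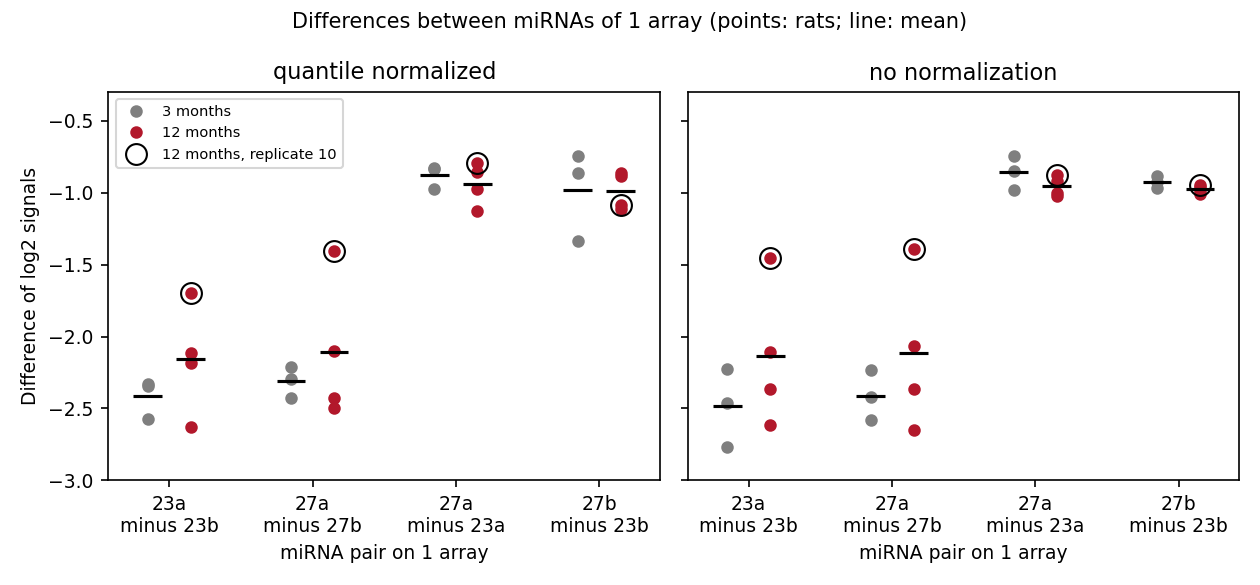
Difference of log2 signals between 2 miRNAs of 1 array (y axis) for 4 pairs (x axis), after quantile normalization (left) and without normalization (right). Points are rats of 3 months (grey) and 12 months (red), lines are means, and rings mark the 12-month-old replicate 10, which is highest for both a minus b differences. Pairs within a cluster (27a minus 23a, 27b minus 23b) span less than pairs between clusters without normalization.

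The SD of such a difference over the 7 arrays states how closely a pair moved together, a smaller SD meaning a closer pair. All arrays share a slide, and a brightness factor common to all miRNAs of an array drops out of the unnormalised differences. A factor that differs between bright and dim miRNAs does not drop out. Counted from the brightest miRNA of each array, the b forms and miR-24 held ranks 4 to 18 and the a forms ranks 23 to 44. The grouping by cluster therefore coincides with a grouping by brightness. Without normalization, the closest pair was miR-23b with miR-27b (SD 0.041), followed by miR-23a with miR-27a (0.098), miR-24 with miR-27b (0.129) and miR-23b with miR-24 (0.135). The pairs with the same seed were much less close, at 0.428 for miR-23a with miR-23b and 0.425 for miR-27a with miR-27b, near the median of 0.442 over the 28203 pairs of the 238 miRNAs detected on all arrays. miR-24 was closer to the b forms than to the a forms, from which it varied by 0.366 (miR-23a) and 0.374 (miR-27a). After quantile normalization the SDs were 0.085 for miR-24 with miR-27b, 0.118 for miR-23a with miR-27a, 0.156 for miR-23b with miR-24 and 0.203 for miR-23b with miR-27b, against 0.314 and 0.374 for the same-seed pairs and a median of 0.428 over all pairs. Of all pairs, 0.0284% were closer than miR-23b with miR-27b and 1.24% closer than miR-23a with miR-27a without normalization. After quantile normalization these shares were 9.98% and 1.38%. These SDs describe the 7 arrays and carry no test. The pairs of the background were not matched for brightness, and the part of brightness in the closeness of the pairs was not tested. The 75th percentile of total gene signal in the older replicate 10 was 71.2 units, against 67.0 to 73.8 units in the other older rats. By this measure its low b forms and miR-24 did not come with a dimmer array.

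The distance between the clusters rested in part on the 12-month-old replicate 10. Without it, and without normalization, a setting chosen after the data had been seen, the same-seed pairs had SDs of 0.244 (miR-23) and 0.218 (miR-27), while the pairs within a cluster stood at 0.045 (b) and 0.106 (a). In that setting miR-24 varied by 0.217 and 0.209 from miR-23a and miR-27a, and by 0.133 and 0.129 from miR-23b and miR-27b. With quantile normalization and without replicate 10, the miR-27 pair (0.141) was closer than miR-23b with miR-27b (0.207), and the miR-23 pair stood at 0.203. Under normexp background correction of the spots, miR-23b with miR-27b (0.235) was no closer than miR-23a with miR-23b (0.233), and miR-24 was closest to miR-23b (0.130) but nearer to miR-23a (0.169) and miR-27a (0.180) than to miR-27b (0.238). In the other 16 of 18 settings, several of which give the same differences by construction, both pairs within a cluster were closer than both same-seed pairs.

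**Figure D4:**
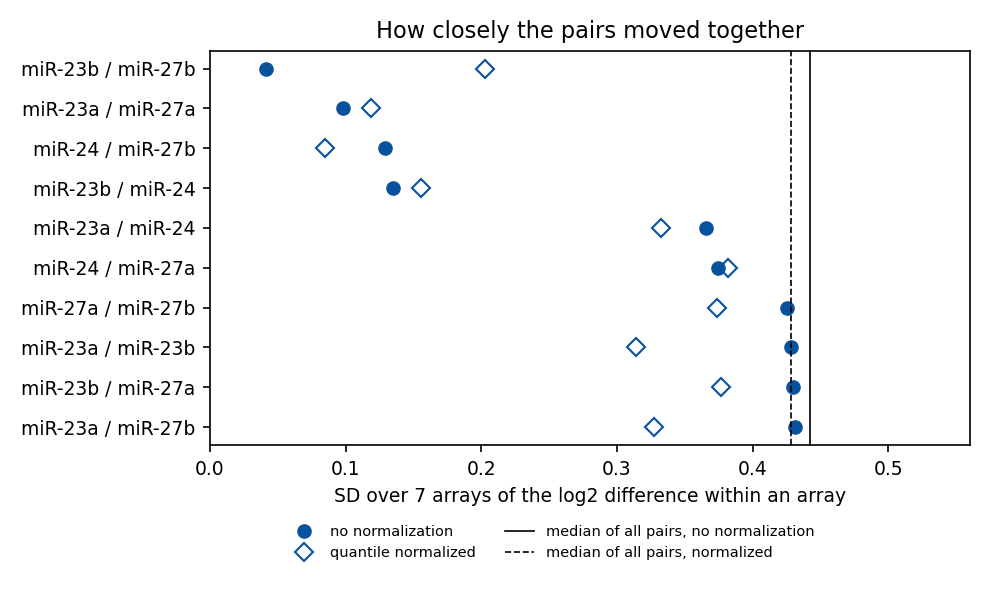
SD over 7 arrays of the within-array log2 difference (x axis) for the 10 pairs among the 5 miRNAs (y axis), without normalization (filled) and after quantile normalization (open). Lines mark the median SD over all 28203 pairs of miRNAs detected on all arrays. The pairs within a cluster and the pairs of miR-24 with the b forms lie at 0.203 or below, and all other pairs lie at 0.314 or above.

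Each miRNA was read by 2 probes of 10 spots each, and no spot was saturated. Without normalization both probes of a miRNA gave similar log2 age differences, such as 1.07 and 1.06 for miR-23a and 0.81 and 0.80 for miR-24. For the normalised values, both probes of a miRNA were shifted on each array by the same amount, that of their miRNA. Their shared sign is therefore not independent. The probes of miR-23a gave log2 differences of 0.25 and 0.23 and those of miR-27a 0.18 and 0.18. The probes of miR-23b gave -0.03 and -0.02, those of miR-27b -0.01 and -0.03, and those of miR-24 -0.05 and -0.06. With only the brightest probe of each miRNA, normalised by itself, the log2 fold changes were 0.21 for miR-23a and 0.16 for miR-27a. They were -0.02 for miR-23b, -0.14 for miR-27b and 0.16 for miR-24. Over the 4 combinations of probes, the unnormalised age difference of miR-23a minus miR-23b was 0.34 to 0.37 and that of miR-27a minus miR-27b was 0.28 to 0.31. How far a probe for an a form also binds the b form, which differs by 1 base, was not tested.

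By the SD of the normalised within-array difference over 7 arrays, the nearest miRNAs outside the clusters were miR-140 (0.110), miR-29a (0.111) and let-7f (0.123) for miR-23a, and miR-29b (0.135), miR-126 (0.146) and let-7a (0.151) for miR-27a. For miR-23b they were miR-425 (0.076), miR-500 (0.088) and miR-30b-3p (0.089). The nearest to miR-27b were miR-532-5p (0.094), miR-125a-5p (0.110) and miR-455 (0.122). For miR-24 they were miR-125a-5p (0.087), miR-352 (0.102) and miR-384-5p (0.103). No miRNA was listed for both a forms, for both b forms, or for an a form and a b form. The lists thus do not set the clusters apart. Only miR-125a-5p stood near 2 members, miR-27b and miR-24. All those listed for miR-23b and miR-27b were closer to them than these b forms were to each other (0.203). miR-140 and miR-29a were closer to miR-23a than miR-27a was (0.118), whereas none listed for miR-27a was closer to it than miR-23a. Without normalization the 15 SDs ran from 0.080 (miR-140 with miR-23a) to 0.264 (let-7f with miR-23a). Of those listed for the a and b forms, only miR-140 was then closer than the partner in the cluster (0.098 for miR-23a with miR-27a). Quantile normalization holds the brightest miRNAs nearly constant, and miR-29a had an SD of 0 at 12 months and miR-29b an SD of 0 at 3 months. For these the unnormalised SDs were larger, at 0.178 for miR-29a with miR-23a and 0.230 for miR-29b with miR-27a, so that their closeness is not read as a shared pattern.

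Marker miRNAs of cell types also differed between these rats. The summed signal of the 3 endocrine miRNAs detected (miR-375, miR-7a and miR-7b) was 33980 units in the 12-month-old replicate 10 and 54304 to 64625 units in the other older rats, against 26733 to 35493 units at 3 months. Without normalization, replicate 10 thus lay within the range of the younger rats for this sum, as it did for miR-23b, miR-27b and miR-24. After normalization it had the lowest miR-375 (13.32) and miR-7a (14.51) of all rats on the log2 scale. Its miR-7b (10.22) was not the lowest, as the older replicate 4 had 10.11. The 3 acinar miRNAs (miR-216a, miR-216b and miR-217) summed to 1451 units in replicate 10 and to 149 to 844 units in the other older rats, and to 887 to 1722 units at 3 months. All 3 had a negative log2 fold change with an unadjusted p below 0.05, and for 0 the adjusted p was below 0.05. The endothelial pair miR-126 and miR-126* summed to 2173 to 2794 units at 12 months and 1017 to 1754 units at 3 months, with no overlap and with replicate 10 lowest of the older rats, and 1 of the pair had an unadjusted p below 0.05. The 5 mesenchymal miRNAs (miR-143, miR-145, miR-199a-3p, miR-199a-5p and miR-214) summed to 2629 to 3645 units and 736 to 1711 units. All 5 had positive log2 fold changes, with an unadjusted p below 0.05 for 4 and an adjusted one for 0. The 4 immune miRNAs on the array summed to 310 to 663 units at 12 months and 141.8 to 222 units at 3 months, with an unadjusted p below 0.05 for 2 of them. The 2 erythroid ones summed to 144.1 to 289 units and 86.7 to 224 units, with an unadjusted p below 0.05 for 0. No immune, endothelial, erythroid or endocrine marker had an adjusted p below 0.05. All these sums are unnormalised and include the brightness of the arrays. Of all 272 miRNAs tested, 21.7% had an unadjusted p below 0.05 (limma). Without normalization, 48.2% of them were higher at 12 months with no overlap. After normalization 0 of the 2 erythroid and 0 of the 3 endocrine miRNAs were higher at 12 months, with median log2 fold changes of -0.52 and -0.20, whereas both endothelial and 3 of the 4 immune miRNAs were higher, with medians of 0.32 and 0.62. The part of these cells in the differences between the clusters was not tested.

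The other arms of the hairpins can tell the clusters apart where mature miR-24 cannot. Of the 6 star forms on the array, miR-23a*, miR-23b*, miR-27a*, miR-27b* and miR-24-1* were not detected on any array. miR-24-2*, from the a cluster, was detected on all 4 arrays at 12 months, at 5.83, 5.83, 6.19 and 9.15 units in replicates 2, 4, 10 and 16, and on 0 of 3 at 3 months, at 2.81, 2.59 and -0.957 units in replicates 9, 11 and 13. The older arrays were brighter and also detected more miRNAs in all, 287 ± 8.41 (SD, n = 4) against 259.7 ± 13.1 (SD, n = 3), with no overlap (exact permutation p = 0.0286). How many other miRNAs were detected on all older and no younger arrays was not counted. Both star forms of miR-24 are shown because 5 of their bases differ.
miR-24-1*: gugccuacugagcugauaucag
miR-24-2*: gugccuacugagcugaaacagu

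From miR-24-1* to miR-24-2* the bases changed by U17A, U19C, C20A, A21G and G22U. Under this normalization the mean level of miR-24-2* at 12 months was 1.85-fold an upper bound set for 3 months, not the measured 3-month mean. For this bound, each younger array took the higher of its own value and its lowest detected signal. This ratio does not carry over to other settings. The fitted log2 fold change of miR-24-2*, 1.27 (SE 0.44; limma adjusted p = 0.142), did not pass the test. miR-24-2* entered the test only because it was detected at 12 months. The value lies close to the floor. It ranged from 0.66 to 1.74 with single rats left out, lowest without the younger replicate 13, was 0.27 within slide row 1, and fell to 0.17 when arrays were normalised after the detection filter and to 0.05 with normexp. miR-3074, which lies on the opposite strand at Mir24-1, was not detected on any array.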

How the data were processed

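RNA from the islets of 7 rats, 4 of 12 months and 3 of 3 months, was measured on single-colour Agilent miRNA arrays. The authors deposited the output of Agilent Feature Extraction (version 10.7.3.1 per the submitters' processing notes), with background-subtracted intensity values on a linear scale and a detection flag for each miRNA. A matrix of quantile-normalised log2 values, deposited as well, served as an alternative.

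Without the control features, total gene signals of 677 rat miRNAs were floored at 1, put on the log2 scale and quantile normalised in R (version 4.3.3) with limma (version 3.58.1). A miRNA was tested if all arrays of either age detected it. The resulting 272 were fitted with lmFit and eBayes (3.03 prior degrees of freedom), with Benjamini-Hochberg adjustment over all 272. The methods name Student's t-test, which was run as an alternative. Single values and within-array differences were tested with a two-sided exact permutation test over the 35 splits of the rats. Intervals are 95% intervals of the limma fit. The code was tested on simulated data.

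The members, the cell type lists and the tests were chosen with earlier results of these data known. The text names the 5 members, the star forms of their hairpins, the 3 miRNAs nearest to each member by the SD of the within-array difference, the cell type markers and miR-7a. miR-3074 was added after its values had been seen. Replicates are separate rats. Between 246 and 296 miRNAs were detected per array, and the number of arrays limits the precision. All arrays lay on 1 slide in 2 rows. Alternatives covered the signal summary, background correction, normalization, filter, floor, variance model, array weights, slide row, deposited matrix and each rat left out. Since an older rat assembly is given in the header of the array files, GRCr8 was used only for sequences, cluster positions and neighbouring genes.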

Additional observations from a re-analysis of the deposited data

Results flagged for a closer look

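Of 12 measures checked for a rat that lay apart among the 12-month-old rats, 1 was found. For miR-27b, replicate 10 lay at 11.96 on the normalised log2 scale and the other older rats at 12.52 to 12.57, and the gap to the nearest rat was 0.908 of the whole range, above Dixon's critical value for 4 samples. Chance alone gives such a gap in about 1 of 20 groups. The flag holds for the normalised scale. Without normalization the log2 values of miR-27b were 13.24, 12.72, 12.01 and 13.01 in replicates 2, 4, 10 and 16. There the other older rats lay further from each other, and the criterion was not applied. miR-23b and miR-24 were also lowest in replicate 10, at 13.05 and 11.85, and did not pass this criterion. Without replicate 10 the log2 fold change of miR-27b was 0.11.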

How the results depend on the processing

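miR-23a and miR-27a were higher at 12 months in all 26 alternatives run. Their adjusted p lay below 0.05 only without normalization (log2 fold changes 1.06 and 0.97, adjusted p = 0.0167 and 0.0168), where the median of all tested miRNAs also rose by 0.79 and where miR-24 reached 0.80 (adjusted p = 0.0385), miR-23b 0.72 and miR-27b 0.67. For miR-23a the unadjusted p was 0.0291 by the methods' t-test, 0.0135 with normexp, 0.0239 with no detection filter and 0.0443 in the deposited matrix, and for miR-27a it was 0.0331 with normexp.

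The b forms and miR-24, close to 0, changed sign in several settings. miR-24 lay at 0.16 with the brightest probe, 0.085 with normexp, 0.080 and 0.17 with the 75th percentile of detected and of all miRNAs, 0.066 with array weights, 0.23 in slide row 1 and 0.024 in the deposited matrix. miR-23b lay at 0.083 with the 75th percentile of all miRNAs, 0.085 with array weights and 0.021 in the deposited matrix, and miR-27b at 0.035, 0.10 and 0.11 in these and 0.33 in row 1. miR-27b minus miR-23b turned to 0.023 with normexp, 0.031 with the row as a block, 0.35 in row 1 and 0.088 in the deposited matrix, and in row 1 miR-27a minus miR-27b turned to -0.084 and miR-27a minus miR-23a to 0.058. The cause of these shifts was not tested.

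With single rats left out, the log2 fold changes ranged from 0.20 to 0.33 for miR-23a, 0.08 to 0.25 for miR-27a, -0.11 to 0.091 for miR-23b, -0.12 to 0.11 for miR-27b and -0.15 to 0.080 for miR-24. The age differences ranged from 0.11 to 0.44 for miR-23a minus miR-23b, -0.027 to 0.33 for miR-27a minus miR-27b, -0.12 to -0.01 for miR-27a minus miR-23a and -0.15 to 0.082 for miR-27b minus miR-23b. Without the 12-month-old replicate 10, miR-23b lay at 0.091, miR-24 at 0.080 and miR-27b at 0.11.

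Over all miRNAs, the number with an unadjusted p below 0.05 was 36 with miR-7a scaling, 193 with no normalization, 89 with array weights, 33 and 31 in rows 1 and 2, and 41 to 88 with single rats left out, the highest without replicate 10. The number with an adjusted one was 13 (brightest probe), 2 (normexp), 21 and 10 (75th percentile of detected and of all miRNAs), 15 (miR-7a), 171 (no normalization), 1 (detected on all 7 arrays), 48 (array weights), 0 (row 1), 8 (deposited matrix) and 4 to 10 (single rats left out). The methods' t-test gave 49 and 3 at the 2 thresholds. No paired analysis was possible because the 2 ages share no replicate numbers.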
